A study of Mus musculus with 12 samples.

Results

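The mitochondrial ribosomal protein genes were taken as the protein-coding genes whose GENCODE M21 symbol begins with Mrpl or Mrps followed by a digit. The rule found 78 genes of 54532 counted, on 17 chromosomes, and left out 5 processed pseudogenes with matching symbols. RNA was sequenced from gastrocnemius, a calf muscle of mostly fast fibres, in 12 libraries. All mice were of the C57BL/6 strain, wild type in genotype and 6 to 7 months old. Naive muscle is labelled as a naive control, with no injection named in the labels. Saline muscle was injected with saline, injury muscle with bupivacaine, a local anaesthetic that damages muscle fibres, and needling muscle with bupivacaine followed by acupuncture 24 hours later. Each group had 3 libraries, and the saline group is the control for injection. The labels do not give the time from injection to tissue collection, nor whether each library came from a separate mouse. The p-values therefore measure only the spread between these libraries, which may be technical.

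Mitochondria keep a ribosome of their own, which translates only the proteins encoded by mitochondrial DNA. Those proteins are core subunits of the respiratory chain and of ATP synthase, on which oxidative muscle fibres depend. All protein subunits of this ribosome are encoded in the nucleus, translated in the cytosol and imported. Some descend from bacterial ribosomal proteins, while others are specific to mitochondria. The small subunit reads the messenger RNA and the large subunit forms the peptide bond.

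The promoters of 4 genes are shown as examples of the regulatory sequence in front of these genes. Mrpl42 and Mrpl51 were among those with the largest decreases between naive and needling muscle, Mrps21 had the highest level, and Mrps18c had the smallest difference. Each window runs 5′ to 3′ on the strand of the gene, from 250 bases before to 50 bases after the RefSeq start, on GRCm38.p6. The windows are chr10:95501900-95502199 on the minus strand for Mrpl42, chr6:125191950-125192249 on the plus strand for Mrpl51, chr3:95871465-95871764 on the minus strand for Mrps21 and chr5:100798509-100798808 on the plus strand for Mrps18c. Capitals mark letters that match a motif of a factor known to act on mitochondrial genes or of a common promoter element, on either strand. In Mrpl42 they mark AAGATGGC, the motif of YY1. In Mrpl51 they mark CCGGAAG, the motif of ETS factors such as GABP. Mrps21 holds, both read on the other strand, a match to the motif of NRF1 (GCGCA and GCGC set 1 base apart) and further downstream the ETS motif. Mrps18c holds the E-box CACGTG followed by the ETS motif on the other strand. No 2 matches overlapped in these 4 windows.
Mrpl42: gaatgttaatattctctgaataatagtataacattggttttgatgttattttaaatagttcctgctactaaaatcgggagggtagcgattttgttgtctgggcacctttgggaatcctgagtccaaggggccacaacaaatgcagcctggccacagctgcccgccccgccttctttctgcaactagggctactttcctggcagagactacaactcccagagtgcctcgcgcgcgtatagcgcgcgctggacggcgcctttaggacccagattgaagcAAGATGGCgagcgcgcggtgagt
Mrpl51: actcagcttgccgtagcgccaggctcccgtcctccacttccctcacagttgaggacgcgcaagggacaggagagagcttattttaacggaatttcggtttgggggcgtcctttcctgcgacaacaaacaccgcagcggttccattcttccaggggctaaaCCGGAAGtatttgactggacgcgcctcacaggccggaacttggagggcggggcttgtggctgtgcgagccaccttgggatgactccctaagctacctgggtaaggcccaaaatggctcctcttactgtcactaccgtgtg
Mrps21: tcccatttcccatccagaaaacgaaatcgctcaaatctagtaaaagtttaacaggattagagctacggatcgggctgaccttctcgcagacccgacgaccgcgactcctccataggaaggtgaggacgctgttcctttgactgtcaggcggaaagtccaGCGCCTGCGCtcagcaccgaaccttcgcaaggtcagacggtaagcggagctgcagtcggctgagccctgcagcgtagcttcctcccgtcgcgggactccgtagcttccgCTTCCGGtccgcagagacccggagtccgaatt
Mrps18c: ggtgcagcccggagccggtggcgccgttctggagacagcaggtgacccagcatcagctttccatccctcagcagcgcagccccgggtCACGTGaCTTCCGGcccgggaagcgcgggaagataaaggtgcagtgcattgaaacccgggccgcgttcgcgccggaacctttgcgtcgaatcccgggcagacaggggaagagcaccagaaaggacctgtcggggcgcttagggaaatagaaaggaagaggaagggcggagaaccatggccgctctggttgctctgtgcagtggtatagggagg

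Total counts per library lay between 16385233 and 27155738, of which the 78 genes took between 51521 and 94406 counts. Markers of fast fibres were abundant in every library, as the labelled muscle should have, at a summed 80329 to 219447 CPM (counts scaled to the library total, here with TMM factors). Summed markers of slow fibres lay at 650 CPM in saline replicate 1 and 1065 CPM in needling replicate 1, against 3433 to 5932 CPM in the other 10 libraries. Levels below are CPM scaled by TMM, a factor per library that sets the typical gene equal between libraries. These factors ran from 0.781 to 1.28 with the lowest mean in naive and the highest in needling libraries. A gene was called changed at a Benjamini-Hochberg adjusted p under 0.05 in edgeR's quasi-likelihood test, fitted on 15715 genes that passed a filter on low counts. Of the 78 genes 77 passed the filter. Mrpl53 had 0 counts in all 12 libraries, and 88.0% of its exon bases lie within exons of Gm42688 on the same strand. Whether its reads were set aside as ambiguous was not tested. In a bulk sample, fewer cells of a type and less RNA per cell cannot be told apart.

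Relative to the typical gene, mitochondrial ribosomal protein transcripts were highest in naive muscle and lowest in needled injured muscle, while their share of all counts overlapped between groups. The mean log2 CPM over the 77 genes was 5.497, 5.554 and 5.518 in the naive libraries and 5.21, 5.42 and 5.33 in the saline libraries. It was 5.22, 5.27 and 5.24 in the injury libraries and 5.06, 5.14 and 5.16 in the needling libraries. All naive libraries lay above, and all needling libraries below, the other 6 libraries, and saline replicate 1 lay under the injury range. A gene's rank within its own library needs no scaling factor, and is relative to the other genes. The mean percentile of the 77 genes among all genes tested was 78.3 ± 0.438 in naive, 76.4 ± 1.22 in saline, 75.7 ± 0.302 in injury and 73.5 ± 0.596 in needling libraries (SD, n = 3). In contrast, the summed CPM of the genes, taken on column totals with no TMM factor, was 3462 ± 257 in naive, 3387 ± 233 in saline, 3530 ± 254 in injury and 3528 ± 303 in needling libraries (SD, n = 3), ranges that overlap. Scaling by column totals raised the median log2 difference of all genes between needling and naive muscle from -0.03 to 0.46, and that of the 77 genes from -0.41 to 0.08.

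**Figure D1:**
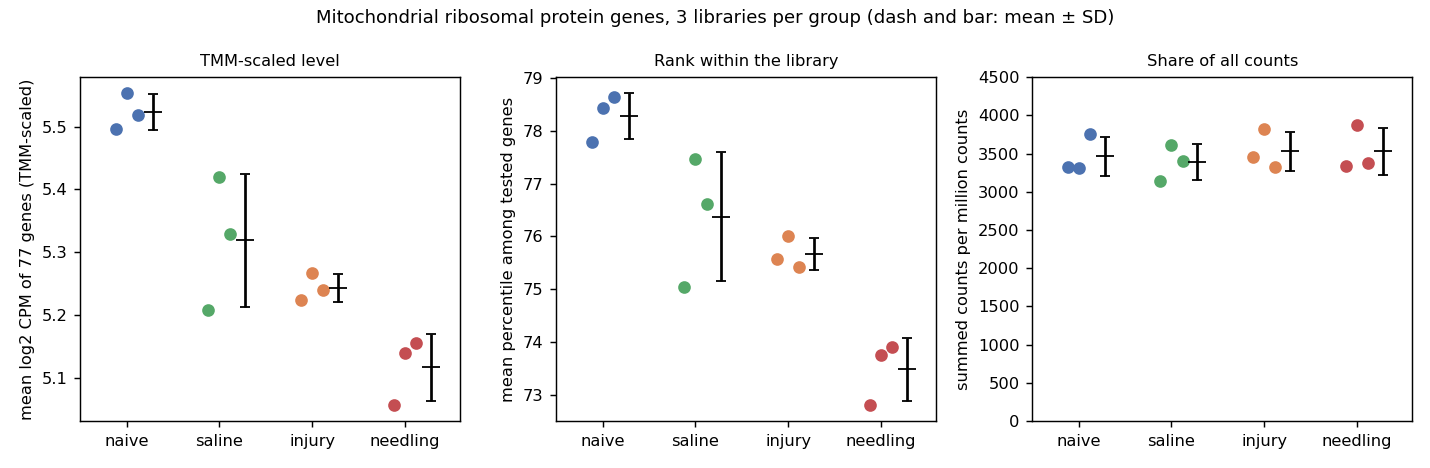
Mitochondrial ribosomal protein genes in each library, as mean log2 CPM scaled by TMM (left), mean percentile among genes tested (middle) and summed CPM on column totals (right). Points are libraries, and the dash with its bar is the mean ± SD of 3 libraries. The first pair of panels descend from naive to needling, while the share of all counts, which is the level scaled by column totals, overlaps between groups.

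Markers of some other cell types moved with the groups. Between needling and naive muscle all 15 macrophage genes and all 12 cell division genes rose, 6 of 9 fibroblast and progenitor genes rose, and 10 of 12 fast fibre genes fell, where 22.9% of all genes were called higher and 18.8% lower. Summed macrophage markers ranged over 119 to 232 CPM in naive, 234 to 591 CPM in saline, 1006 to 1687 CPM in injury and 2379 to 3340 CPM in needling libraries. Summed cell division markers lay at 41.6 to 48.0 CPM in naive and 222 to 319 CPM in needling libraries, and summed fast fibre markers at 167381 to 219447 and 80329 to 124190 CPM. Slow fibre markers had lower estimates for 9 of 9 genes and none passed. Of 7 satellite cell and myoblast genes 5 rose, of 6 endothelial genes 2 fell, and of 5 measured adipocyte genes none passed. With column totals 6 of the 7 satellite cell and myoblast genes rose, and no endothelial or adipocyte gene passed. The median log2 differences of the macrophage, cell division, fibroblast and fast fibre lists kept their sign with column totals, under which 8 of the 9 fibroblast and progenitor genes were called higher and 4 of the 12 fast fibre genes lower, against 46.2% and 2.02% of all genes. The part of these cells in the levels of the mitochondrial ribosomal protein genes was not tested.

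Levels differed 56.7-fold among the genes per unit length. The mean FPKM (fragments scaled by gene length and a factor per library) over 12 libraries had a median of 16.8 over the 77 genes. The deposited FPKM lay near the TMM scale and not that of column totals. The all-gene median log2 difference between needling and naive muscle was -0.01 on log2(FPKM + 0.1), -0.03 with TMM and 0.46 with column totals. Mrps21, a bacterial-type protein of the small subunit, was highest at a mean of 125.6 FPKM, with 155 ± 14.6 in naive, 134 ± 18.6 in saline, 113 ± 6.21 in injury and 99.5 ± 4.65 in needling muscle (SD, n = 3). Mrpl14, at a mean of 82.8 FPKM, and Mrpl2, at 71.1 FPKM, both bacterial-type proteins of the large subunit, followed. The lowest were Mrpl19 at 3.82 FPKM, Mrps30 at 2.58 FPKM and Mrps35 at 2.21 FPKM. Mrpl19 shares 36.0% of its exon bases with Gcfc2 on the opposite strand. The kit's use of strand is not given in the sources used here, so reads of such overlapping genes may be mixed. Across the 77 genes the correlation of log2 FPKM with the log2 difference between needling and naive muscle was -0.32 (Pearson) and -0.36 (Spearman), a description over genes that share the same libraries.

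Needled injured muscle set against naive muscle gave the most calls of the 6 comparisons. Of the 77 genes 56 fell and none rose, against a background of 18.8% of all genes tested called lower and 22.9% called higher. In 62 genes every needling library lay below every naive library, as in 24.1% of all genes. All 77 estimates were lower, with a median log2 difference of -0.41 and a range from -0.87 to -0.07. For all 15715 genes the median was -0.03. With column totals 1 gene, Mrpl42, was called lower (background 2.02%) and 6 were called higher (background 46.2%), and 23 of 77 estimates were lower. The 6 were Mrpl17, Mrpl20, Mrpl36, Mrpl40, Mrpl52 and Mrps17, at log2 differences of 0.32 to 0.41 on that scale. Of the 56 genes 43 were also called with each library left out in turn, fits in which 12.4% to 18.0% of all genes were called lower. Without needling replicate 1, the library low in slow fibre markers, 47 genes were called, beside 14.7% of all genes called lower.

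The largest decrease was that of Mrpl42, a mitochondrion-specific protein of the large subunit (ENSMUSG00000062981, chromosome 10, 95480805 to 95501940, mm10). It measured 191, 214 and 200 CPM in naive, 152, 169 and 138 CPM in saline, 142, 133 and 133 CPM in injury and 103, 109 and 120 CPM in needling muscle. Needling libraries lay below all others, naive libraries above all others, and the saline and injury ranges overlapped. The log2 difference between needling and naive was -0.87 ± 0.11 (SE; edgeR adjusted p = 4.82e-05), a decrease of 45.1%. With column totals Mrpl42 was still lower, at -0.38 ± 0.11 on the log2 scale (SE; edgeR adjusted p = 0.0107).

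Mrpl51, another mitochondrion-specific protein of the large subunit (ENSMUSG00000030335, chromosome 6, 125191801 to 125196269, mm10), measured 208, 187 and 183 CPM in naive and 119, 121 and 125 CPM in needling muscle, with saline at 151 to 161 CPM and injury at 138 to 141 CPM. The 4 groups did not overlap, in the order naive, saline, injury, needling. Needling differed from naive by -0.66 ± 0.09 (log2, SE; edgeR adjusted p = 0.000108), and by -0.18 with column totals, where it was not called. Mrpl16 lies near the transfer RNA binding sites in the bacterial ribosome. It measured 50.3, 56.5 and 64.1 CPM in naive and 32.4, 37.9 and 38.4 CPM in needling muscle (log2 difference -0.65 ± 0.12; edgeR adjusted p = 0.000946). Mrpl30, a bacterial-type protein, measured 118, 130 and 119 CPM against 76.0, 75.9 and 81.2 CPM (log2 difference -0.65 ± 0.09; edgeR adjusted p = 0.000151). The naive and needling libraries of both genes were apart, and neither gene was called with column totals. Mrpl15, a bacterial-type protein of the large subunit, fell by 0.65 on the log2 scale.

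Mrpl12 forms the flexible stalk to which translation factors dock, and is also known to bind the mitochondrial RNA polymerase. It measured 94.8, 92.2 and 91.2 CPM in naive and 56.8, 65.4 and 63.9 CPM in needling muscle. The saline libraries spread from 64.7 to 82.6 CPM and spanned the injury level of 68.4 to 69.3 CPM. Needling differed from naive by -0.58 ± 0.10 (log2, SE; edgeR adjusted p = 0.000586), and Mrpl12 was not called with column totals (log2 difference -0.09). Mrpl12 shares 13.1% of its exon bases with the noncoding gene Gm16755 on the opposite strand. Mrpl11, at the base of the stalk, measured 54.4, 61.6 and 59.8 CPM in naive and 43.4, 41.4 and 43.8 CPM in needling muscle. The injury libraries, at 43.7 to 46.7 CPM, overlapped the needling libraries. For Mrpl11 injury differed from naive by -0.39 (log2; edgeR adjusted p = 0.00723), and from saline by -0.09 (edgeR adjusted p = 0.651). Among abundant genes, Mrpl14 spread widely, from 58.0 to 103 CPM within the saline group, and passed narrowly between needling and naive (log2 difference -0.51 ± 0.19; edgeR adjusted p = 0.0498).

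In the small subunit, Mrps15, whose bacterial counterpart binds ribosomal RNA early in assembly (ENSMUSG00000028861, chromosome 4, 126046925 to 126055532, mm10), measured 63.2, 77.9 and 64.2 CPM in naive and 43.2, 41.2 and 44.5 CPM in needling muscle. The naive libraries lay above all 9 others, and needling differed from them by -0.67 ± 0.11 (log2, SE; edgeR adjusted p = 0.000541). Mrps21 (ENSMUSG00000054312, chromosome 3, 95862634 to 95871519, mm10) measured 103, 124 and 119 CPM in naive, 92.8, 116 and 91.6 CPM in saline, 79.5, 88.8 and 84.0 CPM in injury and 70.4, 76.7 and 73.6 CPM in needling muscle. Its injury and needling libraries were apart from the naive and saline libraries and from each other, and needling differed from naive by -0.64 ± 0.11 (log2, SE; edgeR adjusted p = 0.00069). Mrps12 lies at the decoding centre, where the match between messenger and transfer RNA is read, and its bacterial counterpart is the protein altered in streptomycin resistance. It had the smallest decrease of the genes called, from 41.6, 39.4 and 39.2 CPM in naive to 32.6, 34.2 and 34.7 CPM in needling muscle (log2 difference -0.24 ± 0.09; edgeR adjusted p = 0.0382). With column totals its estimate turned to 0.24 and was not called.

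Mrps36 carries the name of a ribosomal protein but is now known as an adaptor that joins the subunits of the alpha-ketoglutarate dehydrogenase complex of the citric acid cycle (ENSMUSG00000061474, chromosome 13, 100735955 to 100744659, mm10). It measured 58.1, 59.9 and 62.1 CPM in naive, 42.0, 59.6 and 51.8 CPM in saline, 46.8, 47.6 and 45.7 CPM in injury and 35.7, 37.9 and 36.9 CPM in needling muscle. Needling libraries lay below all others, while the saline libraries spread from below the injury range into the naive range. The log2 difference between needling and naive was -0.70 ± 0.11 (SE; edgeR adjusted p = 0.000294), and -0.22 with column totals, where Mrps36 was not called.

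The 3 genes related to the bacterial protein S18 occupy different places in the mitochondrial ribosome, and their differences were unequal. Mrps18a, which sits in the large subunit despite its name, measured 59.1, 61.0 and 56.4 CPM in naive and 38.1, 44.9 and 46.0 CPM in needling muscle (log2 difference -0.45 ± 0.09; edgeR adjusted p = 0.00183). Mrps18b, a mitochondrion-specific position of the small subunit, measured 20.9, 18.2 and 20.8 CPM against 15.4, 18.6 and 15.7 CPM, ranges that overlap (log2 difference -0.27 ± 0.12; edgeR adjusted p = 0.0971). Mrps18c, which holds the bacterial S18 position (ENSMUSG00000016833, chromosome 5, 100798627 to 100804471, mm10), measured 12.4, 14.5 and 14.9 CPM against 13.3, 14.3 and 12.2 CPM, and the ranges again overlap (log2 difference -0.07 ± 0.14; edgeR adjusted p = 0.699). With column totals the 3 estimates were 0.04, 0.22 and 0.42, in the same order, and none was called. The differences between the 3 genes were not themselves tested. Mrps18b shares 30.5% and Mrps18c 23.2% of its exon bases with another gene.

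Mrps30, which also sits in the large subunit despite its name, measured 19.9, 22.4 and 18.3 CPM in naive and 14.7, 15.0 and 14.3 CPM in needling muscle (log2 difference -0.46 ± 0.11; edgeR adjusted p = 0.00476), and its estimate with column totals was 0.03. Mrpl58, a peptidyl-tRNA hydrolase built into the large subunit that can free stalled chains, measured 34.5, 35.8 and 36.1 CPM in naive and 27.7, 31.5 and 31.3 CPM in needling muscle. Those libraries were apart, yet the difference did not pass (log2 -0.23 ± 0.09; edgeR adjusted p = 0.0568), and it was 0.26 with column totals.

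The 21 genes measured but not called in this comparison were also not called in any other. Their log2 differences from naive to needling muscle ran from -0.45 to -0.07, and Mrpl20 was next to Mrps18c at the small end, at -0.08. Mrpl20, a bacterial-type protein of the large subunit, measured 36.1, 35.8 and 37.2 CPM in naive, 31.1 to 32.7 CPM in saline, 31.9 to 34.0 CPM in injury and 35.3, 36.0 and 32.0 CPM in needling muscle. Its naive and needling libraries overlapped. The pair with the largest estimates among those not called, Mrps6 and Mrps34, had the widest spread within groups, with coefficients of variation of 30.2% and 18.6% against a median of 8.01% over the 77 genes. Mrps6, a bacterial-type protein of the small subunit, measured 15.6 CPM in naive replicate 1 and 6.51 to 8.65 CPM in the other 11 libraries. Mrps34, a mitochondrion-specific protein of the small subunit, lay between 31.3 and 65.2 CPM and shares 63.4% of its exon bases with Mapk8ip3 on the opposite strand.

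**Figure D2:**
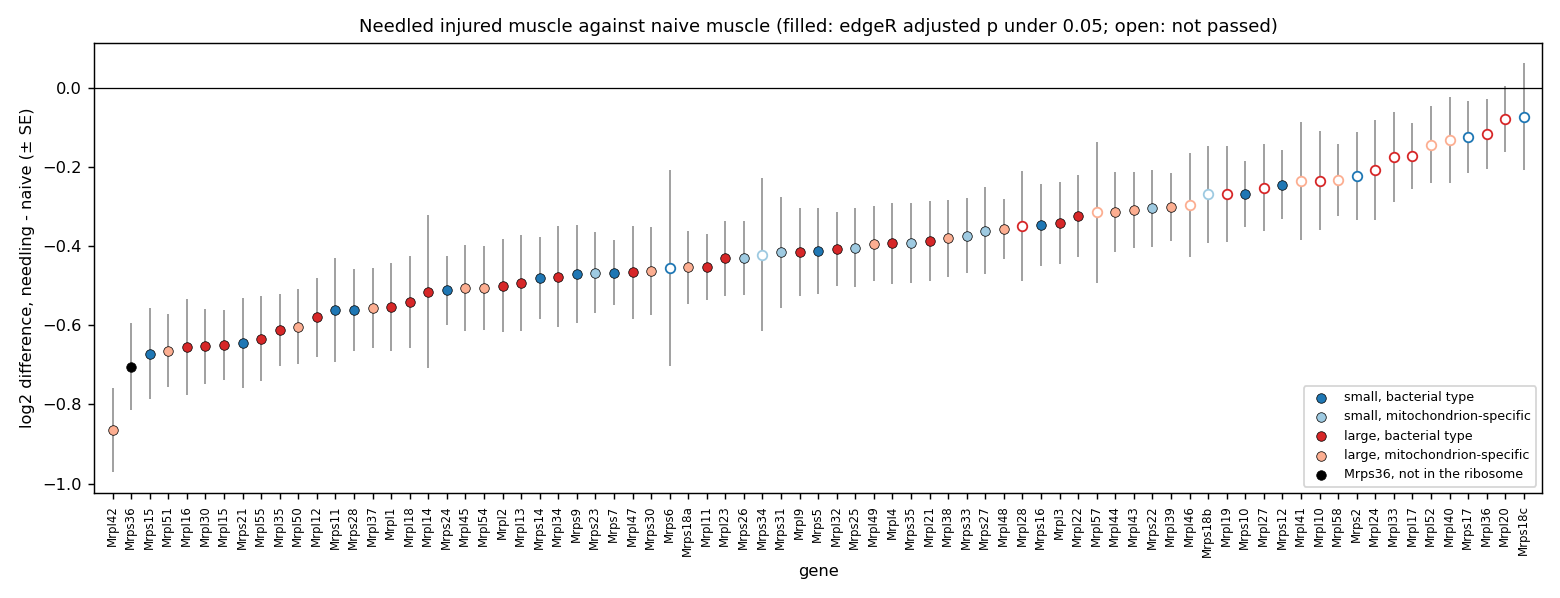
Log2 difference between needling and naive muscle for each of the 77 genes, scaled by TMM, with the SE of the edgeR fit, ordered by size and coloured by class of protein. Filled points passed an adjusted p under 0.05. All 77 lie below 0 on this scale, from -0.87 for Mrpl42 to -0.07 for Mrps18c, while with column totals 54 of 77 lie above 0.

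Injured muscle without needling was set against naive muscle next. Of the 77 genes 27 fell and none rose, where the background was 5.41% of all genes called lower and 12.1% called higher. The groups did not overlap, with injury lower, in 55 genes (15.9% of all genes). The median log2 difference was -0.28, against -0.02 for all genes. With column totals none was called (background 0.0891% lower and 26.3% higher), and 22 of 77 estimates were lower. All 27 were also among the 56 called between needling and naive muscle, a comparison that shares the naive libraries. Mrpl42 again differed most, by -0.57 ± 0.11 (log2, SE; edgeR adjusted p = 0.0029). Mrps15 measured 57.6, 46.7 and 44.1 CPM in injury muscle, apart from naive (log2 difference -0.47 ± 0.11; edgeR adjusted p = 0.0139). Mrpl51 followed at -0.46 ± 0.09 (edgeR adjusted p = 0.00413), Mrpl50 at -0.46 ± 0.09 (edgeR adjusted p = 0.00585), Mrps21 at -0.45 ± 0.11 (edgeR adjusted p = 0.0164) and Mrpl15 at -0.45 ± 0.09 (edgeR adjusted p = 0.004). Mrpl50, a mitochondrion-specific protein of the large subunit, measured 55.1, 67.9 and 55.7 CPM in naive and 44.0, 42.0 and 44.3 CPM in injury muscle. The count of 27 depended on single libraries and on the other groups in the fit. It was 14, 4 and 16 without naive replicates 1, 2 and 3, and 15, 16 and 12 without saline replicates 1, 2 and 3. Without injury replicates 1, 2 and 3 it was 11, 11 and 8, and it was 6 with the 2 groups alone and 7 with no filter on low counts. In all of these settings the share of all genes called lower was also under 5.41%. This share ran from 0.518% without naive replicate 2 to 3.84% without naive replicate 3.

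Set against saline muscle, needled injured muscle had 17 of the 77 genes lower and none higher, beside a background of 10.8% called lower and 18.2% called higher. In 36 genes the needling libraries lay below all saline libraries (22.1% of all genes). The median log2 difference was -0.19, against -0.04 for all genes, and 71 estimates were lower. With column totals none of the genes was called lower (background 1.15%) and 3 were called higher (background 29.1%), namely Mrpl20, Mrpl52 and Mrpl58, and 18 of 77 estimates were lower. All 17 were among the 56 called against naive, with the needling libraries in common. Mrps11, a bacterial-type protein of the small subunit, measured 20.8, 25.6 and 21.1 CPM in saline and 16.1, 16.4 and 16.1 CPM in needling muscle (log2 difference -0.48 ± 0.13; edgeR adjusted p = 0.0174). The pair of groups did not overlap, and injury replicate 2 at 22.1 CPM stood within the saline range. Mrps11 and Mrpl46 lie head to head and share 173 exon bases. Mrps36 differed by -0.47 ± 0.11 (log2, SE; edgeR adjusted p = 0.00738), Mrpl42 by -0.47 ± 0.11 (edgeR adjusted p = 0.00628), Mrpl16 by -0.45 ± 0.12 (edgeR adjusted p = 0.0162) and Mrps21 by -0.45 ± 0.11 (edgeR adjusted p = 0.012). Mrps31, a mitochondrion-specific protein of the small subunit, measured 25.9, 35.6 and 33.5 CPM in saline and 20.7, 22.8 and 27.6 CPM in needling muscle. These ranges overlapped although the difference passed (log2 -0.42 ± 0.14; edgeR adjusted p = 0.0398). The count of 17 was 7 without saline replicate 2, 11 without saline replicate 3, 10 without needling replicate 1, 7 without needling replicate 2 and 10 with no filter on low counts. Without saline replicate 1, the library low in slow fibre markers, it was 21. The share of all genes called lower, 10.8% in the main fit, was 6.82% without saline replicate 1. In the settings before it, in order, this share was 5.77%, 6.33%, 6.22%, 3.12% and 4.35%.

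No gene of the family was called between neighbouring groups in the edgeR fit of all 12 libraries. Between saline and naive muscle, which asks what the injection did, the background was 0% of all genes, and 76 of 77 estimates were lower in saline with a median log2 difference of -0.21. The saline libraries lay below all naive libraries in 31 genes (7.01% of all genes). With column totals 47 of 77 were lower. At an unadjusted p under 0.05 there were 30 genes, all lower, beside 1858 of all 15715 genes, 683 of them lower. DESeq2 called 4 (background 0.16%), namely Mrpl30, Mrpl42, Mrpl51 and Mrps7. The smallest unadjusted p values were those of Mrpl42, Mrpl11, Mrpl30 and Mrpl15. Mrpl30 measured 92.9, 103 and 96.5 CPM in saline muscle, below its 3 naive values (log2 difference -0.33 ± 0.09; edgeR adjusted p = 0.295). Mrpl15 measured 82.4, 83.6 and 78.2 CPM in naive and 64.0, 63.0 and 71.4 CPM in saline muscle (log2 difference -0.30 ± 0.09; edgeR adjusted p = 0.298).

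Between injury and saline muscle, which asks what bupivacaine added, none was called lower against a background of 0.07%, and none higher against 3.96%. DESeq2 also called none, and 4 genes, all lower, had an unadjusted p under 0.05, beside 2422 of all 15715 genes, 585 of them lower. The 4 were Mrps11, Mrpl50, Mrps24 and Mrps21. Mrps24, a small subunit protein at the messenger RNA entry, measured 50.04, 57.2 and 49.8 CPM in saline and 47.2, 45.8 and 44.2 CPM in injury muscle (log2 difference -0.19 ± 0.09; edgeR adjusted p = 0.302). The median log2 difference of the 77 genes was -0.07, with 66 estimates lower, and with column totals 14 were lower. The mean was -0.08, and 0.00917 without saline replicate 2. The injury libraries lay below all saline libraries in 12 genes (9.72% of all genes).

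Needled against injured muscle asks what needling added after bupivacaine. No gene was called (background 0%), DESeq2 called none of the family, and 8 had an unadjusted p under 0.05, all of them lower in needling. Of all 15715 genes 2450 had such a p, 562 of them lower. The median log2 difference was -0.13 with 72 of 77 estimates lower, and with column totals 35 were lower. In 29 genes the needling libraries lay below all injury libraries (7.27% of all genes). Injury and needling libraries of the same number had deviations in common, and a block for that number in a fit of these 6 libraries gave 16 genes called lower, against 7.74% of all genes in that fit. With the block placed within the fit of 12 libraries the count was 0. The 16 included Mrps36, Mrpl42, Mrpl30 and Mrpl35, which had the smallest unadjusted p in the unblocked fit. For Mrps36 the log2 difference in the 12-library fit was -0.34 ± 0.11 without a block (SE; edgeR adjusted p = 0.166), and with the block within those 12 libraries the edgeR adjusted p was 0.124. In the 6 libraries alone it was -0.37 with or without the block, at an edgeR adjusted p of 0.169 without it and 0.00339 with it. The 3 needling libraries lay below the 3 injury libraries for Mrps36, Mrpl42, Mrpl30 and Mrpl35. Mrpl35, a bacterial-type protein of the large subunit, measured 32.6, 31.1 and 32.7 CPM in injury and 28.5, 25.3 and 28.1 CPM in needling muscle (log2 difference -0.23 ± 0.09; edgeR adjusted p = 0.236).

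**Figure D3:**
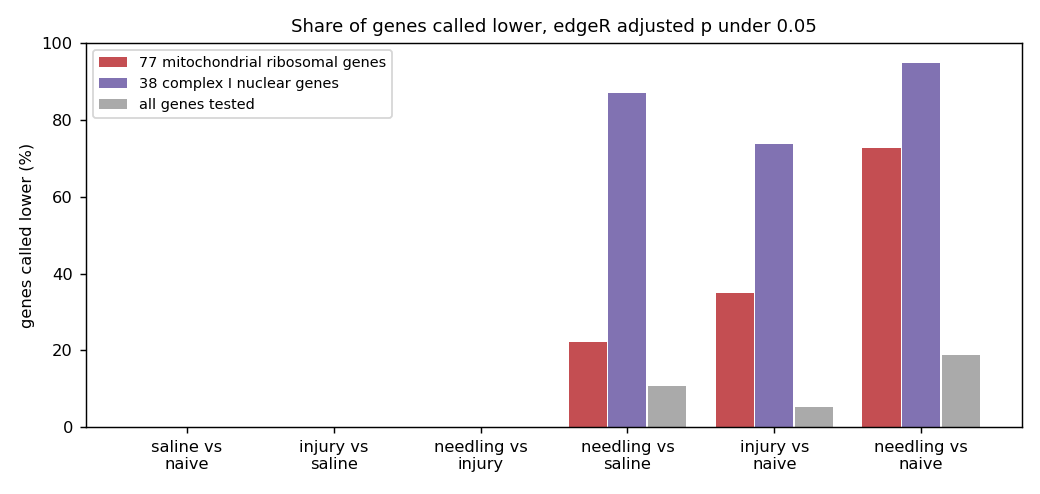
Percentage of genes called lower (edgeR adjusted p under 0.05, scaled by TMM) in each of 6 comparisons, for the mitochondrial ribosomal protein genes, the nuclear genes of complex I and all genes tested. The family reached 72.7% between needling and naive muscle, where all genes reached 18.8%. With column totals 1 of its 77 genes was called lower, beside 2.02% of all genes.

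In most of the genes the group means followed one order. Means descended in the order naive, saline, injury, needling in 63 of 77 genes (81.8%), against 22.6% of all genes tested, on the TMM scale. The naive mean was the highest in 76 genes, the exception being Mrps31, against 35.0% of all genes. The needling mean was the lowest in 70, against 40.0% of all genes. Differences between neighbours in this order did not pass for any single gene in the unblocked edgeR fit. For differences that share no library, those between saline and naive and those between needling and injury, the correlation over the 77 genes was 0.23 (Pearson) and 0.28 (Spearman), a description over genes of the same 12 libraries.

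**Figure D4:**
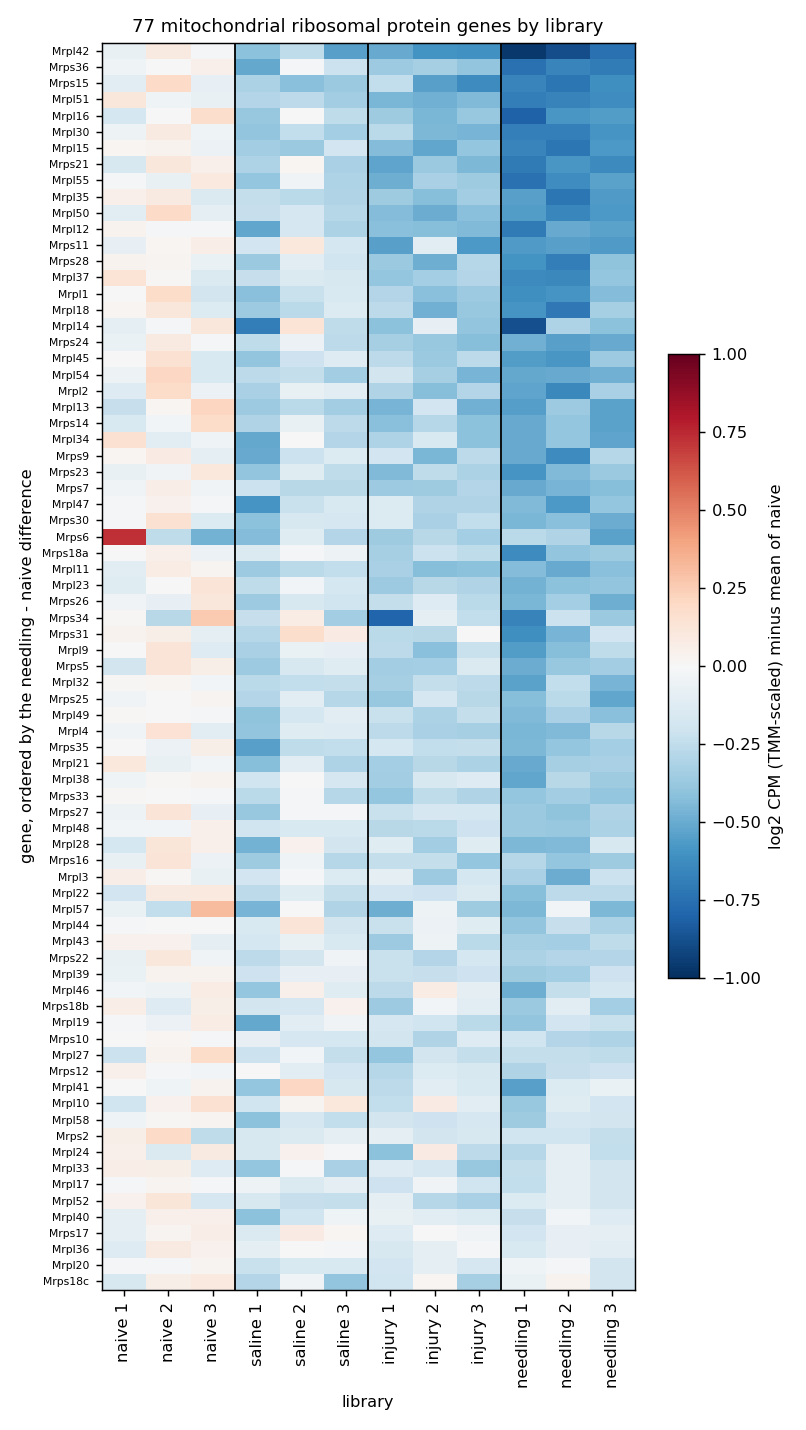
Log2 CPM of each of the 77 genes in each of 12 libraries, scaled by TMM, minus the gene's mean in naive muscle, with genes ordered by the difference between needling and naive. Colour deepens from naive to needling for most genes on this scale, whereas with column totals 54 of 77 needling estimates are above naive. Mrps6 stands out in naive replicate 1.

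The decreases on the TMM scale covered both subunits and both origins of protein. Between needling and naive muscle 35 of 50 large subunit genes and 20 of 26 small subunit genes were called lower, with median log2 differences of -0.40 and -0.41. Of all genes tested 18.8% were called lower. Of the genes for bacterial-type proteins 33 of 46 fell (median -0.44), as did 22 of 30 for mitochondrion-specific proteins (median -0.39). Summed counts of small subunit genes were 0.400 ± 0.00675 of those of large subunit genes in naive, 0.407 ± 0.00479 in saline, 0.403 ± 0.00838 in injury and 0.407 ± 0.00817 in needling muscle (SD, n = 3). This ratio needs no scaling factor, and all groups overlapped. With column totals the medians of the 4 classes of ribosomal protein, by subunit and origin, lay between 0.03 and 0.12. Of 8 measured genes that share over 20% of their exon bases with another gene 3 fell, and of the 69 others 53.

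The median of the mitochondrial ribosomal protein genes lay between those of related gene families under both scalings. Of all genes 18.8% were called lower between needling and naive muscle, and 2.02% with column totals. The 38 nuclear genes of complex I, the first enzyme of the respiratory chain, had a median log2 difference of -0.80 in this comparison with 36 called lower. With column totals it was -0.31 with 12 called lower. The 13 protein-coding genes of mitochondrial DNA, whose messages this ribosome translates, had a median of -1.11 with 10 lower, and -0.64 with 10 lower with column totals. Of 81 measured genes of the cytosolic ribosome 17 rose and 1 fell, at a median of 0.18, and the share that rose was near the 22.9% of all genes called higher. With column totals 73 of the 81 rose and 1 fell, at a median of 0.68, against 46.2% of all genes called higher. Medians of the mitochondrial ribosomal protein genes were -0.41 and 0.08 on the same scales.

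Ratios of summed counts within a library need no scaling factor. Counts of complex I genes were 2.31 ± 0.113 times those of mitochondrial ribosomal protein genes in naive, 2.16 ± 0.187 in saline, 2.05 ± 0.0967 in injury and 1.82 ± 0.159 in needling muscle (SD, n = 3). The naive libraries, at 2.21 to 2.43, did not overlap the needling libraries, at 1.71 to 2.01. Counts of cytosolic ribosomal protein genes were 4.61 ± 0.0803 times those of the mitochondrial family in naive, 4.92 ± 0.0964 in saline, 5.81 ± 0.503 in injury and 7.11 ± 0.793 in needling muscle. This ratio was higher in every injury and needling library than in every naive and saline library. Counts of mitochondrially encoded genes were 35.3 ± 4.05 times those of the family in naive, 28.9 ± 1.74 in saline, 27.8 ± 5.49 in injury and 22.3 ± 4.74 in needling muscle, and here the injury libraries spread over 22.4 to 33.3.

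**Figure D5:**
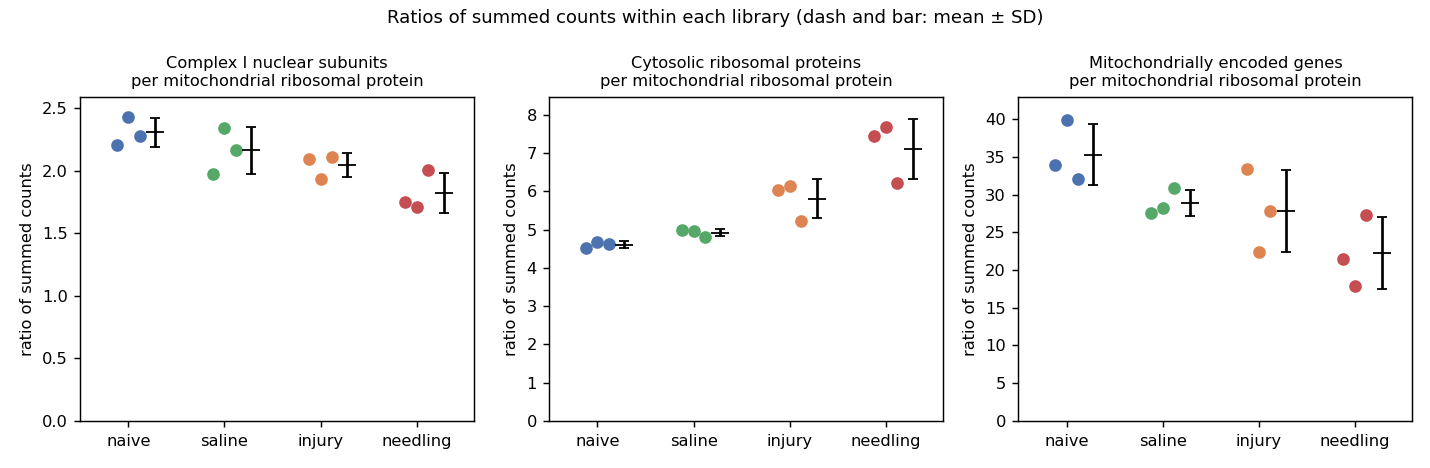
Ratio of the summed counts of complex I nuclear genes (left), cytosolic ribosomal protein genes (middle) and mitochondrially encoded genes (right) to those of the mitochondrial ribosomal protein genes in each library. Points are libraries and the dash with its bar is the mean ± SD of 3. The left ratio falls from 2.31 in naive to 1.82 in needling muscle and the middle ratio rises from 4.61 to 7.11.

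Other genes of mitochondrial translation moved in the same direction on the TMM scale between needling and naive muscle. Of all genes tested 18.8% were called lower on that scale. Of 5 ribosomal proteins whose symbols do not begin with Mrp, namely Dap3, Aurkaip1, Chchd1, Ptcd3 and Gadd45gip1, 4 fell, at a median log2 difference of -0.40 over the 5. Chchd1 measured 111, 104 and 107 CPM in naive and 72.3, 74.6 and 69.5 CPM in needling muscle (log2 difference -0.57 ± 0.10; edgeR adjusted p = 0.000797). Of 15 translation factors 12 fell (median -0.51). Gfm2, the factor that splits the ribosome after termination, measured 96.6, 121 and 95.3 CPM in naive and 63.6, 57.1 and 71.95 CPM in needling muscle (log2 difference -0.70 ± 0.12; edgeR adjusted p = 0.000617). The release factor gene Mtrf1l and the initiation factor gene Mtif2 fell by 0.59 and 0.52 on the log2 scale. Of 27 ribosome assembly factors 14 fell (median -0.39), among them the ribosomal RNA methyltransferase genes Mrm3 and Mrm1, by 0.70 and 0.58, and Fastkd2, by 0.61. With column totals no gene of these 3 lists was called lower, and 6 assembly factors and 1 translation factor were called higher. On that scale 2.02% of all genes were called lower and 46.2% higher. The medians of the 3 lists were 0.09, -0.02 and 0.09.

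Of 20 genes that charge mitochondrial transfer RNAs 11 fell (median -0.37), among them Gatc and Gatb, subunits of the enzyme that makes glutaminyl transfer RNA, by 0.59 and 0.55, and the alanyl synthetase gene Aars2 by 0.50. Of 8 genes that copy or transcribe mitochondrial DNA 4 fell (median -0.38). Beside these 2 lists, 18.8% of all genes were called lower on the TMM scale. Twnk, the mitochondrial DNA helicase, measured 39.5, 37.4 and 32.9 CPM in naive and 20.4, 21.01 and 22.4 CPM in needling muscle, the lowest of any group (log2 difference -0.78 ± 0.10; edgeR adjusted p = 6.51e-05), and was also called lower with column totals, at -0.29. Twnk overlaps Mrpl43 over 33.4% of the exon bases of the latter. The transcription factor genes Tfb2m and Tfam fell by 0.66 and 0.51 and were not called with column totals. With column totals 1 of the 20 transfer RNA charging genes was called higher and none lower. Of the 8 mitochondrial DNA genes 2 were called higher and 1 lower, and the median was 0.11 in both lists. Of all genes 46.2% were called higher and 2.02% lower on that scale.

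Of 9 regulators of mitochondrial gene expression 2 fell between naive and needling muscle on the TMM scale, and none rose, a share near the 18.8% of all genes called lower. With column totals 5 of the 9 were called higher and none lower, against 46.2% and 2.02% of all genes. Esrra, a nuclear receptor that acts with PGC-1 coactivators, measured 175, 213 and 188 CPM in naive and 105, 95.9 and 129 CPM in needling muscle (log2 difference -0.81 ± 0.16; edgeR adjusted p = 0.00139). Ppargc1a, which encodes the coactivator PGC-1 alpha, measured 48.8, 53.3 and 52.8 CPM against 27.4, 24.8 and 39.1 CPM (log2 difference -0.76 ± 0.16; edgeR adjusted p = 0.00176). Needling libraries of both genes lay below naive libraries, and neither gene was called with column totals, at -0.33 and -0.29. Nrf1, a transcription factor of nuclear genes for mitochondria, measured 14.3, 15.0 and 14.4 CPM against 14.4, 13.8 and 13.6 CPM and did not pass (log2 difference -0.06 ± 0.10; edgeR adjusted p = 0.623). Gabpa, the DNA-binding subunit of GABP, did not pass either, at -0.22 ± 0.11 (edgeR adjusted p = 0.144). With column totals the estimates of Nrf1 and Gabpa were 0.43 and 0.28. Myc measured 17.6 CPM in naive replicate 1 and 4.58 and 5.10 CPM in the other naive libraries, against 14.7, 16.04 and 12.5 CPM in needling muscle, and did not pass (edgeR adjusted p = 0.225).

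RefSeq promoter windows on GRCm38.p6 were found for 69 of the 78 genes. The ETS motif CCGGAAG, read on both strands, was present in 26 of them (37.7%), against 18.7% of the 11261 tested genes with a window. The NRF1 motif, GCGCA and GCGC set 1 base apart, was present in 13 (18.8% against 10.6%) and the YY1 motif AAGATGGC in 12 (17.4% against 4.89%). The E-box CACGTG was present in 5 (7.25% against 11.4%) and the TATA box TATAAA in 5 (7.25% against 9.46%). The median log2 difference between needling and naive muscle was -0.34 in the 25 measured genes with the ETS motif and -0.45 in the 43 without. It was -0.43 in the 13 genes with the NRF1 motif and -0.39 in the 55 without, and -0.46 in the 12 with the YY1 motif and -0.40 in the 56 without. In the 5 genes with the E-box, among them Mrps18c with the smallest difference, the median was -0.12, and in the 63 without it -0.41. In the 5 with the TATA box the median was -0.36, against -0.41 in the 63 without. Called lower were 2 of the 5 genes with the E-box and 47 of the 63 without. With the ETS, NRF1, YY1 and TATA motifs 17 of 25, 11 of 13, 11 of 12 and 3 of 5 were called lower. Of all genes tested 18.8% were called lower. These matches describe letters in the window and not binding.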

How the data were processed

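Gene expression was measured by RNA sequencing of total RNA from mouse gastrocnemius, taken up in Trizol and prepared with the NEBNext Ultra kit, per the labels' protocols. The aligner was HISAT2 2.0.5 and the genome mm10, per the submitters' processing notes. How reads were counted, by strand and where genes overlap, is not given in the sources used here. Of the values the authors deposited, one table gives counts as whole numbers and the other FPKM, both by gene. Within a library, the quotient of count and FPKM relative to that in naive replicate 1 was the same for every gene (10146 genes compared, 100% within 1e-6 on the log scale). Symbols, exon overlaps and coordinates came from GENCODE M21, which named 54409 of 54532 gene IDs. The mitochondrial ribosomal protein genes, the other gene lists and the tests were chosen with earlier results of these data known.

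The main test was edgeR 4.0.16 (quasi-likelihood, robust, TMM, filter on low counts by group) in R 4.3.3, two-sided, fitted once to the 12 libraries by group, with Benjamini-Hochberg adjustment over 15715 genes. Mean log2 CPM used a prior count of 2. Alternatives were median-ratio size factors, column totals, DESeq2 1.42.0, no filter, a filter of 1 CPM in 6 libraries, the 2 groups alone, a replicate block, limma 3.58.1 on log2(FPKM + 1) and log2(FPKM + 0.1), and each library left out. The main test was tried on simulated counts first. With 3 libraries a group an exact permutation test could not go below p = 0.1, so none was used for single values.

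Replicate numbers were taken from the sample titles. Injury and needling libraries of one number had correlated deviations from the group means (0.238, 0.485 and 0.422 over all genes tested), above the 0.1 asked of each pair, and no other pair of groups met this. The pairing rests on the data, and the labels give no origin for it. The genes named were, per comparison, the 6 called genes with the largest difference in a direction, or the 4 with the smallest unadjusted p where fewer than 3 were called. Also named were the 3 highest and 3 lowest by FPKM, the 2 most variable within groups, 8 of special role, and up to 3 genes of each other list. Mrpl17, Mrpl20, Mrpl36, Mrpl40, Mrpl52, Mrpl53, Mrps7 and Mrps17 were named after their values were seen, as was Mrpl46. Promoter windows came from RefSeq.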

Additional observations from a re-analysis of the deposited data

How the results depend on the processing

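With column totals the mean log2 difference of the 77 genes moved from -0.20 to -0.0134 for saline against naive, from -0.08 to 0.0799 for injury against saline, from -0.13 to 0.0146 for needling against injury, from -0.20 to 0.0946 for needling against saline, from -0.28 to 0.0665 for injury against naive and from -0.41 to 0.0811 for needling against naive. The direction turned in all of these except saline against naive. The median of all genes moved to 0.20, 0.13, 0.15, 0.26, 0.33 and 0.46, and relative to it the family mean for needling against naive was -0.38 under both scalings. The genes called numbered 3, 0 and 7 in the last 3 comparisons, and all-gene calls between needling and naive went from 3593 higher and 2952 lower to 7263 higher and 317 lower. Between needling and naive 54 of the 77 estimates changed sign. Among the genes named in the text for their values, estimates that changed sign included those of Mrps18a (0.0374), Mrps18b (0.22), Mrps18c (0.42), Mrps30 (0.0342), Mrps12 (0.24), Mrpl58 (0.26), Aurkaip1 (0.0865), Nrf1 (0.43) and Gabpa (0.28). Other settings that moved a count by over 1.5 times were DESeq2 (4 genes for saline against naive), the replicate block on 6 libraries (16 for needling against injury), no filter (10 for needling against saline, 7 for injury against naive) and the 2 groups alone (6 for injury against naive, with a mean log2 difference of -0.25). The replicate block changed no other call count by over 1.5 times. Leaving out each library gave 45 to 56 genes for needling against naive, 4 to 26 for injury against naive, 7 to 21 for needling against saline, and 0 for the other comparisons. The share of all genes called lower ran over 12.4% to 18.0%, 0.518% to 6.37% and 3.12% to 11.9% in the comparisons with calls. In the same order the mean log2 differences ranged from -0.43 to -0.37, -0.29 to -0.22 and -0.26 to -0.15, and for saline against naive, injury against saline and needling against injury from -0.24 to -0.13, -0.10 to 0.00917 and -0.17 to -0.10. The value of 0.00917 was that without saline replicate 2. Median-ratio size factors, the stricter filter and both limma settings kept every count of called genes within 1.5 times. The FPKM used by limma lay near the TMM scale. The family mean for needling against naive was -0.40 on log2(FPKM + 0.1), so limma on FPKM gives no separate check of the scaling. The shifts with column totals are those of leaving out the TMM factors, with means of 0.839 in naive and 1.18 in needling libraries. Causes of the shifts under the other settings were not tested.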
